A study of Rattus norvegicus with 2 samples.

Results

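Circular RNAs (circRNAs) made from genes for chromatin and histone modifiers were examined in rat lung, with and without exposure to lipopolysaccharide (LPS). The members were chosen by the name of the host gene, the gene in which the circular junction lies. A fixed pattern of symbols took the histone methyltransferase, demethylase, acetyltransferase, deacetylase and corepressor families, bromodomain and PHD finger proteins, ATP-dependent remodellers, the DNA methylation enzymes, and cohesin with its SMC relatives. It found 150 of 4734 circRNAs, on 67 of 2502 host gene names, and the junction values of each host were also summed. The pattern uses names alone. The members lay on 20 chromosomes, and 32 of the 67 hosts had 1 junction.

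Both groups were SD rats, 12 in all, split at random. The Sham rats received PBS and the LPS rats received LPS at 2 mg/kg, both sprayed into the trachea, and lung was taken 24 h later as a model of acute lung injury. Each group had 1 circRNA library, and the sources used here do not say how many rats it holds. There was therefore no replicate error, no test was made, and every difference below is between 2 libraries. In bulk lung, fewer cells of a type and less of a circRNA per cell cannot be told apart.

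A circRNA forms when the end of an exon is spliced back to the start of the same or an earlier exon, and the junction so made is what the sequencing counts. Chromatin regulators are large, multi-exon genes that work as writers, erasers and readers of marks on histones and DNA, as motors that move nucleosomes, and as rings that hold DNA loops. Several of them are known from studies of immune cells, where they open or close genes of the inflammatory response. A circRNA of such a gene says nothing by itself about the level of its mRNA or protein, neither of which was analysed here.

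The deposited values are junction reads scaled to a fixed total (CPM), so a level is a share of the circRNA junction reads of its library. The depth was 38112 junction reads in the Sham library and 52505 in the LPS library, and 1 read was worth 26.2 and 19.0 CPM. A circRNA with 0 or 1 read carries a fill-in value, written below as "at the fill-in", and could hold up to 4.74 reads (one-sided 95% Poisson limit for 1 hidden read), or 124 CPM in the Sham and 90.4 CPM in the LPS library. A fold written as "at least" against the fill-in sets the listed level itself against this limit. The counting error of the listed level is left out, so such a fold is not a 95% bound. The threshold of at least 2-fold is that of the study's methods. Their limit on the false discovery rate was not applied, so the calls here are looser. A fold change is the LPS over the Sham value after adding 0.5 reads to each, with the fill-in as 0. Folds of circRNAs with few reads are understated on this scale, while folds against the fill-in may be too large, as 1 read can be hidden there. Intervals are 95% intervals (Wilson for levels, Clopper-Pearson for ratios of CPM) and cover counting error only. Reads copied by PCR, with no molecular identifier to count, can repeat 1 molecule, so the intervals may be too narrow even for that. Equal read numbers give a log2 fold change of -0.46, which reflects the depths alone. Among hosts that mark lung cell types, 3 of 10 epithelial names were listed with 7 Sham and 3 LPS reads, 3 of 6 endothelial with 143 and 223, and 3 of 7 fibroblast and smooth muscle with 401 and 210. Of the macrophage names 1 of 6 was listed with 2 and 4 reads, of the neutrophil names 1 of 5 with 0 and 25, and of the lymphocyte names 0 of 4. The part of these differences in the values below was not tested.

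The chromatin hosts together took shares of the 2 libraries whose intervals overlap. They held 1312 Sham reads, or 3.44% of the library (3.26 to 3.63), and 1854 LPS reads, or 3.53% (3.38 to 3.69). Without the circRNA with the most reads, which belongs to Hdac4, the shares were 2.87% and 2.95%. Within this share 41 host genes differed at least 2-fold. Among those with the most reads, Stag1, Asxl1, Brd8 and Jmjd1c were higher in LPS, and Ncoa5, Dnmt3a, Chd6 and Setd7 were lower, with the same directions on the other scales described below. Stag1 lost the 2-fold call on the scale set by circRNAs with 50 or more reads (log2 0.64, from 1.08) and where only rows naming a single host were taken (0.92), and Chd6 (-0.67), Dnmt3a (-0.84) and Setd7 (-0.98) lost it on the scale set by all shared circRNAs. Of the 67 hosts, 17 were at least 2-fold higher in LPS, against 31.1% of all host genes, 24 were at least 2-fold lower, against 38.0%, and 26 were within 2-fold. Counting only hosts with 10 or more reads in all, 8 of 42 were higher (25.0% of all such hosts) and 14 were lower (26.6%). The other 25 hosts, with fewer reads, comprised 9 that were higher, 10 lower and 6 within 2-fold. The median log2 fold change was -0.27 for the 67 hosts and -0.32 for all hosts, and -0.26 and -0.11 with 10 or more reads.

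**Figure D1:**
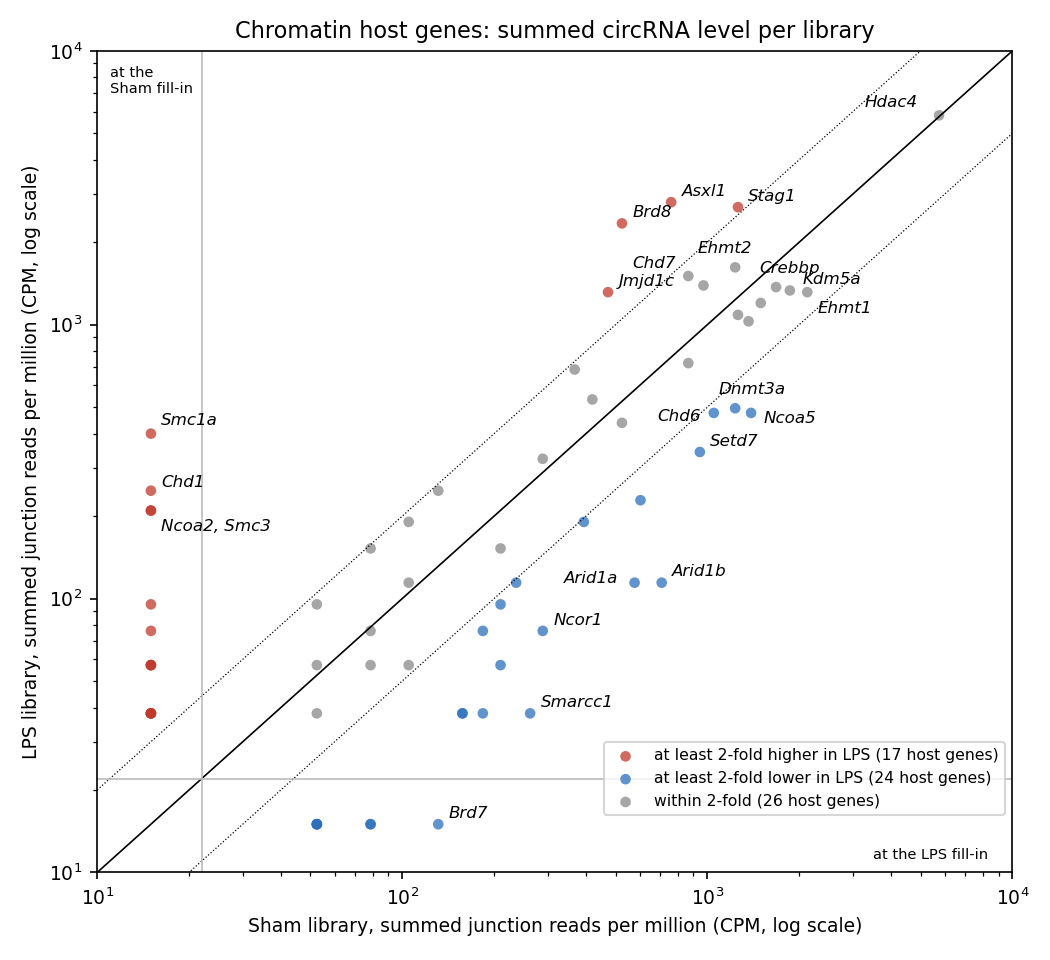
Summed junction level of each of the 67 chromatin host genes in the Sham library (x axis) and the LPS library (y axis), in CPM on log scales. The solid line marks equal CPM, the dotted lines 2-fold, and points beyond the gray lines are hosts whose junctions were all at the fill-in in that library. Asxl1, Brd8, Jmjd1c and Stag1 lie above the upper dotted line, Arid1a, Arid1b and Smarcc1 well below the lower one, and Hdac4 on the line of equality.

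Of the 150 circRNAs, 54 were at least 2-fold higher in LPS (35.7% of all circRNAs) and 58 were lower (43.3%), with 38 within 2-fold. Most of these calls rested on few reads, since the members listed in a single library, 86 of 150, had a median of 3 reads in it. With 10 or more reads, 11 of 52 were higher (29.1% of all such circRNAs) and 18 were lower (29.6%). Among members with reads in both libraries, the interval of the ratio lay wholly above 1 for 8 of 64 (12.5%) and wholly below 1 for 8 (12.5%), against 13.5% and 16.8% of the 1757 such circRNAs of the whole table. The split between directions depended on the scale. Setting the median ratio of the 1757 circRNAs listed in both libraries to 1 adds 0.46 to every log2 value and gave 23 higher and 16 lower hosts (59.0% of the called hosts higher, against 41.5%). Setting that of the 323 with 50 or more reads to 1 takes off 0.44 and gave 16 higher and 26 lower. Taking the fill-in as 1 read left 21 higher and 58 lower circRNAs (26.6% higher, against 48.2%).

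Levels were very uneven among the members. The 6 circRNAs with the most reads, 1 each of Hdac4, Stag1, Brd8, Crebbp, Ehmt2 and Asxl1, held 38.1% of the 3166 reads, while 98 of the 150 members had fewer than 10 reads. By role, remodellers, deacetylases with corepressors, and histone methyltransferases were the highest groups in the Sham library, at 7635, 7583 and 6770 CPM. In the LPS library the readers and scaffolds reached 6704 CPM, next to 6837 CPM for the deacetylases with corepressors and 6476 CPM for the remodellers.

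**Figure D2:**
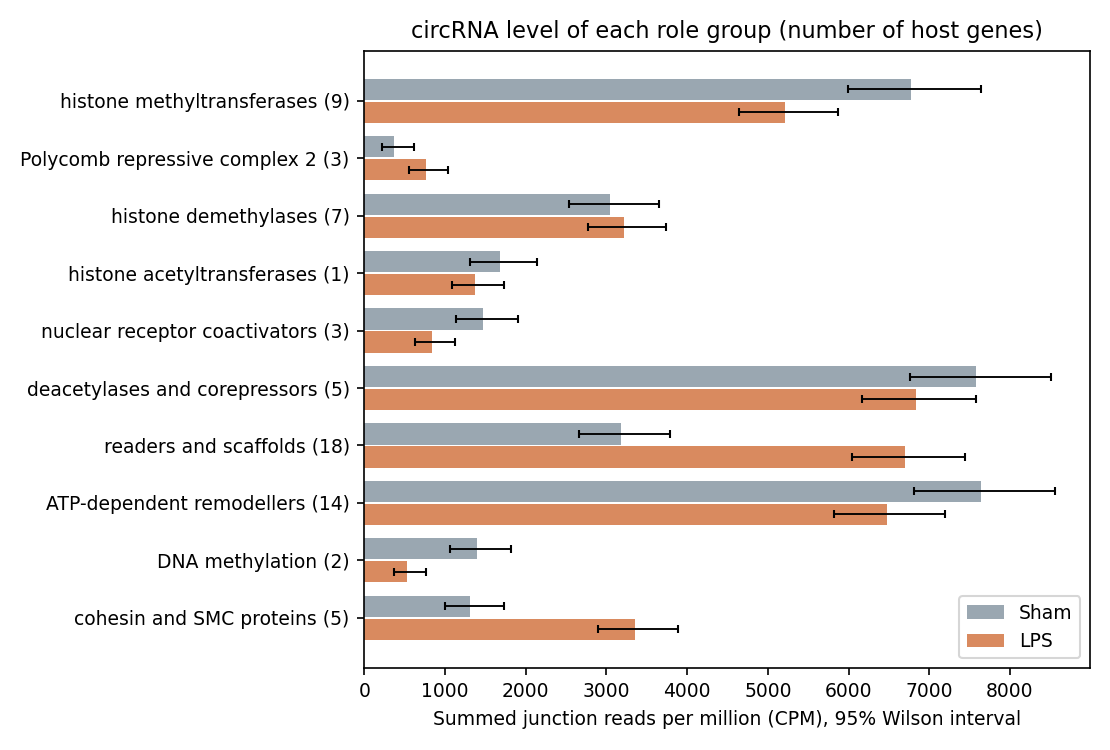
Summed CPM of each role group in the Sham (gray) and LPS (orange) libraries, with 95% Wilson intervals for counting error and the number of host genes in brackets. Readers and scaffolds (3175 to 6704 CPM) and cohesin and SMC proteins (1312 to 3352 CPM) were higher in LPS, DNA methylation enzymes lower (1391 to 533 CPM). These 3 directions held on both other scales, while those of the methyltransferases, demethylases, acetyltransferase, deacetylases and remodellers did not.

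Cohesin and SMC hosts showed the largest ratio of the groups. Cohesin is the ring that holds chromatin loops and sister chromatids together. Its members and relatives went from 50 Sham to 176 LPS reads, a ratio of 2.56 (1.86 to 3.57), and the ratio was 3.52 and 1.88 on the other scales. Of 5 hosts, 4 were higher and 1, Smc6, a subunit of a related repair complex with 2 reads in the Sham library, was lower.

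Stag1, a subunit that binds the ring and fixes it on chromatin, carried most of this. It had 48 reads in the Sham library, or 1259 CPM (950.1 to 1669), and 141 in the LPS library, or 2685 CPM (2278 to 3166), a ratio of 2.13 (1.53 to 3.02). Its main circRNA, at chromosome 8, 109044546 to 109052504, went from 40 to 110 reads, which is a ratio of 2.00 (1.38 to 2.94) and just under the 2-fold threshold. Another circRNA shared the higher coordinate and began at 108991414, a span of 61090 nt. It went from 2 to 20 reads, a ratio of 7.26 (1.76 to 64.1), the largest among members with reads in both libraries and 10 or more in all. Start and end are by coordinate, whatever the strand of the gene. The row of this longer circRNA also names small RNA genes inside its span.

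Smc1a and Smc3, which pair in the ring, were listed in the LPS library only. Smc1a, one ATPase arm, had 21 LPS reads over 2 junctions. Its 258-nt circRNA at X, 21721646 to 21721904, took 19 of them, and was at least 2.91-fold higher than the limit of the Sham fill-in. Smc3, the other arm, had 1 circRNA of 1473 nt with 11 LPS reads, 1.68-fold above that limit. Its LPS interval began at 117 CPM, below the limit of 124 CPM. Stag2, the alternative to Stag1, had 3 LPS reads, as many as its Sham fill-in could hold. Without Stag1 the group had 2 Sham and 35 LPS reads, a ratio of 12.7 with a wide interval (3.26 to 109). Both take the Sham fill-in of Smc1a, Smc3 and Stag2 as 0 and may be too large. Of cohesin-related hosts outside the name pattern, Rad21 with 5 Sham reads and Esco1 with 4 were at the LPS fill-in. Mau2, also outside it, had 11 and 9 reads (ratio 0.594, 0.218 to 1.58).

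Readers and scaffolds are proteins with bromodomains, which bind acetylated histones, or PHD fingers, which bind methylated or bare histone tails. The 18 hosts went in sum from 121 to 352 reads, a ratio of 2.11 (1.71 to 2.62) that was 2.91 and 1.55 on the other scales. Only 4 of the 18 were at least 2-fold higher, 7 were lower and 7 within 2-fold. The sum turned on Asxl1 and Brd8. Without both, the other 16 hosts had 72 Sham and 82 LPS reads, a ratio of 0.827 (0.595 to 1.15).

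Asxl1 is a Polycomb-group scaffold that activates the histone deubiquitinase BAP1. Its 5 circRNAs went from 29 reads, or 760.9 CPM (529.9 to 1093), to 147 reads, or 2800 CPM (2383 to 3290), a ratio of 3.68 (2.46 to 5.69). Of the 5, 4 shared their start at chromosome 3, 148837814, and differed in where they ended. The shortest of these, 4626 nt, went from 20 to 111 reads (ratio 4.03, 2.49 to 6.85), and the longest, 24304 nt, from 9 to 17 (1.37, 0.578 to 3.49). Between them a circRNA of 14428 nt went from the fill-in to 15 LPS reads, at least 2.30-fold higher. The rows of these longer circRNAs name small RNA genes as well. All 4 starting there had more reads in the deeper LPS library, though the 24304-nt circRNA was within 2-fold. The other of these 4, of 17542 nt, had 2 LPS reads, which its Sham fill-in could hold. The circRNA that began elsewhere, of 152 nt, likewise had 2 LPS reads, which its Sham fill-in could hold.

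Brd8, the bromodomain subunit of the TIP60 acetyltransferase complex, had the largest ratio among hosts with reads in both libraries. It went from 20 reads, or 524.8 CPM (339.7 to 810.5), to 123 reads, or 2343 CPM (1964 to 2794), a ratio of 4.46 (2.77 to 7.56). A 342-nt circRNA at chromosome 18, 27412774 to 27413116, held all 20 Sham reads and 117 of the LPS reads. Phf3, which binds RNA polymerase II, had 5 Sham and 13 LPS reads and stayed within 2-fold in sum. Its 2 circRNAs, with a shared start, had opposite 2-fold calls. The 161-nt circRNA was listed only in LPS, with 11 reads. This was 1.68-fold above the limit of the Sham fill-in, but its interval began below that limit, at 117 CPM. The 740-nt circRNA had 5 Sham and 2 LPS reads, with a ratio of 0.290 and an interval of 0.0276 to 1.77 that includes 1. The row of the 740-nt circRNA names other genes as well, and without it Phf3 was listed in LPS only.

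The readers that were lower had few reads. Phf12, part of a Sin3 deacetylase complex, went from 8 to 3 reads, 3.67-fold lower with an interval of 0.882 to 21.5 that includes 1. Brd7, a subunit of the PBAF remodeller, had 5 reads in the Sham library only. This was 1.45-fold above the limit of the LPS fill-in, but its interval began below that limit, at 56.0 CPM. Brwd1 with 3 Sham reads and Baz1b, a remodeller subunit, with 2 were also at the LPS fill-in, which could hold as much. Of the 11 other readers Phf20 had the most reads, 16 and 28 (ratio 1.27), and Brd1 had 4 and 10, both within 2-fold. The rest had at most 8 reads in either library. Of these, Phf21a (8 and 5), Phf2 (7 and 2) and Brd3 (2 Sham reads only) were called lower. The intervals of Phf21a and Phf2 include 1, and the LPS fill-in could hold the reads of Brd3. Baz2a with 3 reads and Phf11d with 2, in LPS only, were called higher, and the Sham fill-in could hold as much.

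**Figure D3:**
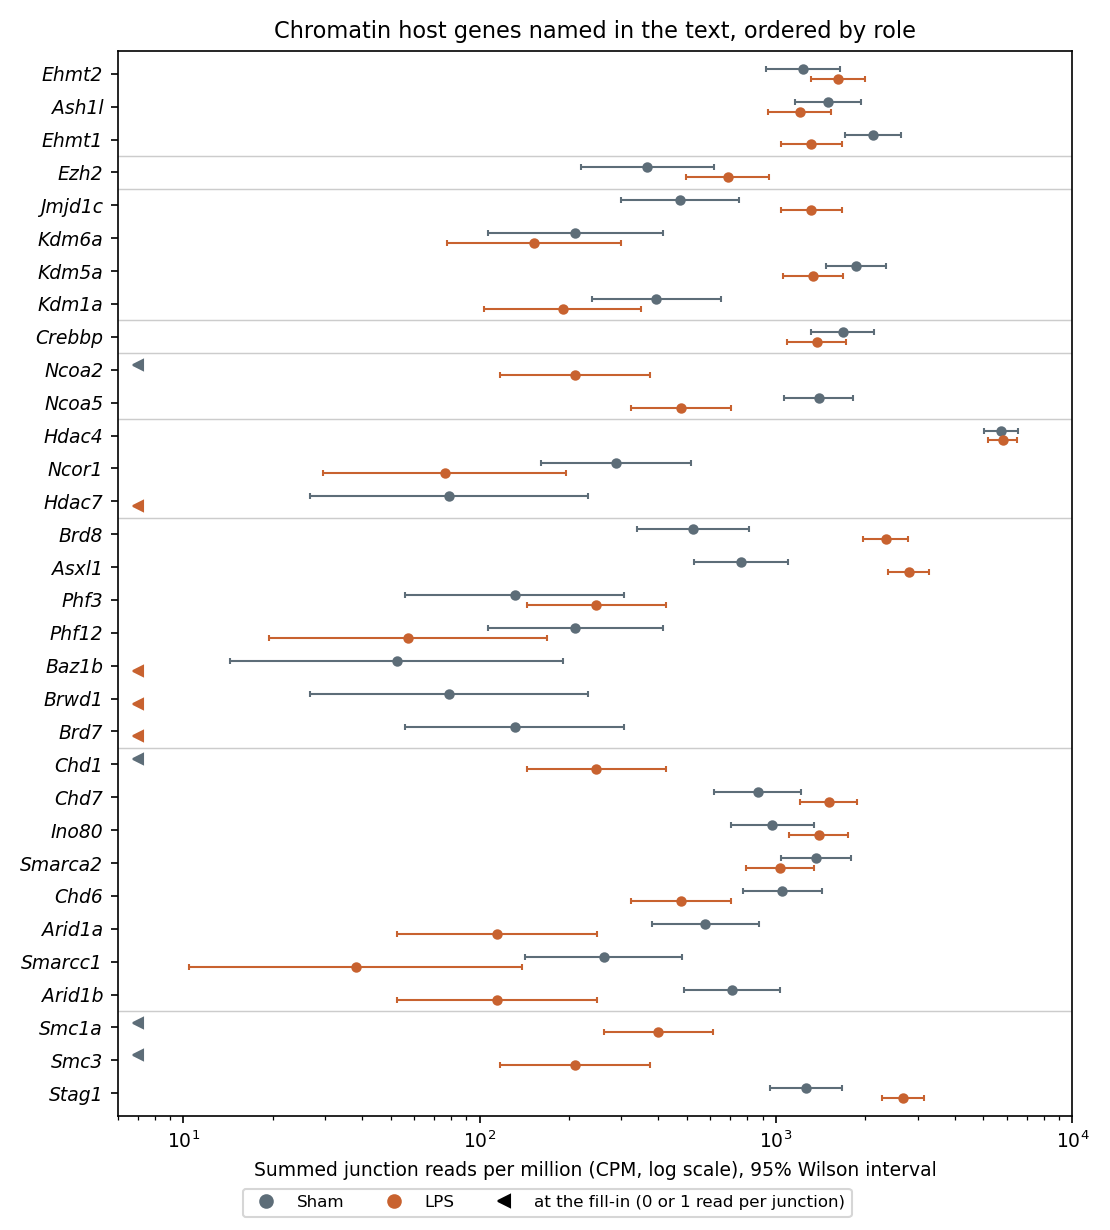
Summed junction level (CPM, log scale) of 32 named host genes in the Sham and LPS libraries, with 95% Wilson intervals, arranged by role. Left-pointing triangles mark hosts whose junctions were all at the fill-in. Intervals of the libraries lie apart for Jmjd1c, Brd8, Asxl1 and Stag1, which were higher in LPS, and for Ehmt1, Ncoa5, Chd6, Arid1a, Smarcc1 and Arid1b, which were lower.

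DNA methylation enzymes had the lowest ratio. The 2 hosts went from 53 to 28 reads, a ratio of 0.383 (0.234 to 0.617), or 0.528 and 0.282 on the other scales. Dnmt3a, which places new methyl groups on cytosine, had 47 Sham reads, or 1233 CPM (927.6 to 1639), and 26 LPS reads, or 495.2 CPM (338.0 to 725.5), 2.49-fold lower (1.51 to 4.19). Its circRNAs shared their end at chromosome 6, 28272697, and both were lower, the 591-nt circRNA from 39 to 24 reads (2.24-fold, 1.31 to 3.89) and the 37001-nt circRNA from 8 to 2 (5.51-fold, 1.10 to 53.3). Tet3, which oxidises methylcytosine toward its removal, had 6 and 2 reads, 4.13-fold lower with an interval of 0.739 to 41.9 that includes 1.

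The remodellers use ATP to slide or evict nucleosomes. Their 14 hosts had 291 Sham and 340 LPS reads, a ratio of 0.848 (0.723 to 0.995) that was 1.17 and 0.623 on the other scales, with 2 hosts higher, 6 lower and 6 within 2-fold. The subunits of the BAF (SWI/SNF) complex were mixed, and those lower with 10 or more reads were Arid1a, Arid1b and Smarcc1. Arid1a and Arid1b are DNA-binding subunits that replace each other in this complex. Arid1a went from 22 reads, or 577.2 CPM (381.3 to 873.9), to 6 reads, or 114 CPM (52.4 to 249), 5.05-fold lower (1.99 to 15.2). Its circRNA of 2948 nt at chromosome 5, 151944769 to 151947717, went from 22 to 4 reads.

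Arid1b went from 27 reads, or 708.4 CPM (486.9 to 1031), to 6 reads, or 114 CPM, 6.20-fold lower (2.51 to 18.4). The sum takes the fill-in as 0, and with the fill-in as 1 read it went from log2 -2.54 to -2.05. Of its 5 circRNAs, 3 began at chromosome 1, 45923228, and all 3 were called lower. The one of 194 nt went from 10 to 4 reads (ratio 0.290, with an interval of 0.0665 to 1.01 that includes 1). That of 60715 nt went from 3 to the fill-in, which could hold as much, and that of 91437 nt from 10 to the fill-in (at least 2.90-fold). The others were one of 10837 nt with 4 reads in Sham only, and one of 30871 nt with 2 in LPS only, which its Sham fill-in could hold. Smarcc1, a core scaffold of the complex, had 10 Sham and 2 LPS reads, 6.89-fold lower (1.47 to 64.7). Smarca2, its BRM motor, had 52 and 54 reads and stayed within 2-fold (ratio 0.754, 0.505 to 1.12), with a 217-nt circRNA at 45 and 44 reads. Smarcc2, a relative of Smarcc1, had 11 and 17 reads (ratio 1.12), Smarca4, the alternative motor, 2 Sham reads only, and Smarce1, a DNA-binding subunit, 2 LPS reads only.

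The CHD and INO80 hosts were mixed. Chd7, the motor mutated in CHARGE syndrome, had 33 and 79 reads (ratio 1.74, 1.14 to 2.69), and Ino80, the motor of the complex of that name, had 37 and 73 (1.43, 0.952 to 2.19). Chd1, which spaces nucleosomes in transcribed genes, was listed in the LPS library only, with 8 reads on one junction and 5 on the other. The 8 reads were 1.22-fold above the limit of the Sham fill-in, but their interval began below that limit, at 77.2 CPM. Chd6 was lower, with 40 reads, or 1050 CPM (770.9 to 1429), in the Sham and 25, or 476.1 CPM (322.6 to 702.8), in the LPS library, a difference of 2.20-fold (1.31 to 3.79). Its 517-nt circRNA had 22 and 25 reads, within 2-fold (ratio 0.825, 0.446 to 1.53), whereas the other 3 went from 18 reads to the fill-in. That with the most reads, at chromosome 3, 157028112 to 157030654, had 10 in the Sham library (at least 2.90-fold lower). With the fill-in as 1 read, Chd6 in sum was within 2-fold (log2 -0.97). Chd2, another motor of this family, had 48 and 57 reads over 2 circRNAs, both within 2-fold. One had 24 and 40 reads (ratio 1.21, 0.712 to 2.10) and the other 24 and 17 (0.514, 0.259 to 0.998). The remaining hosts of the group, Ep400 and Ino80d, had at most 7 reads in either library.

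Deacetylases and corepressors remove acetyl groups from histones or bring the enzymes that do so. Hdac4, a class IIa deacetylase that shuttles between nucleus and cytoplasm, was the highest member in both libraries. It had 219 Sham reads, or 5746 CPM (5036 to 6556), and 305 LPS reads, or 5809 CPM (5194 to 6496), and the ratio was 1.01 (0.847 to 1.21), a log2 fold change of 0.01 that was 0.48 and -0.43 on the other scales. The 238-nt circRNA at chromosome 9, 99266783 to 99267021, held 217 and 305 of these reads. It ranked 13 among all 4734 circRNAs and made up 16.5% of the member reads in either library.

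Without Hdac4 the group was lower in LPS, with 70 Sham and 54 LPS reads and a ratio of 0.560 (0.385 to 0.810), or 0.771 and 0.411 on the other scales. Ncor1, a scaffold that brings a deacetylase to nuclear receptors, went from 11 to 4 reads, 3.79-fold lower (1.12 to 16.3), and its 5989-nt circRNA from 8 to 2. Hdac7, another class IIa enzyme, was listed only in Sham, with 3 reads. Hdac2, the class I enzyme among them, had 33 and 38 reads, a ratio of 0.836 (0.510 to 1.38).

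Coactivators and the acetyltransferase work on the opposite side, and their hosts did not move together. The 3 coactivators had 56 Sham and 44 LPS reads in sum. The ratio was 0.570 (0.375 to 0.862), or 0.786 and 0.419 on the other scales. Without Ncoa5 they had 3 and 19 reads. Crebbp, the CBP acetyltransferase that many transcription factors recruit, had 64 Sham reads, or 1679 CPM (1315 to 2144), and 72 LPS reads, or 1371 CPM (1089 to 1726), a ratio of 0.817 (0.575 to 1.16). A 709-nt circRNA carried 62 and 72 of these. Ncoa5, a nuclear receptor coregulator, went from 53 reads, or 1391 CPM (1063 to 1818), to 25, or 476.1 CPM (322.6 to 702.8), 2.92-fold lower (1.78 to 4.90), on its only circRNA. Ncoa2, a steroid receptor coactivator, had 11 reads in the LPS library only, on a 1269-nt circRNA. This was 1.68-fold above the limit of the Sham fill-in, but its interval began below that limit, at 117 CPM. Ncoa1, a close relative of Ncoa2, had 3 and 8 reads.

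Histone methyltransferases place the marks that readers bind. The 9 hosts had 258 and 274 reads, a ratio of 0.771 (0.648 to 0.917) that was 1.06 and 0.566 on the other scales, with 1 host higher, 3 lower and 5 within 2-fold. Ehmt1 and Ehmt2 form the dimer that methylates lysine 9 of histone H3. Ehmt1 had 9 circRNAs, the most of any member, and 81 and 69 reads, a ratio of 0.618 (0.442 to 0.863). Its most abundant circRNA held 30.9% and 31.9% of its reads, and a circRNA of 1824 nt went from 17 to 6 (3.90-fold lower, 1.47 to 12.1). Ehmt2 had 1 circRNA, of 459 nt at chromosome 20, 4580955 to 4581414, with 47 and 85 reads (ratio 1.31, 0.909 to 1.92).

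Ash1l, which methylates lysine 36 of histone H3, had 57 and 63 reads in sum (ratio 0.802, 0.552 to 1.17) but a different make-up in each library. Its 8013-nt circRNA went from 34 to 58 reads, within 2-fold (ratio 1.24, 0.797 to 1.95), and from 59.6% to 92.1% of the host's reads. The other 6 went from 23 to 5 reads, 6.34-fold lower (2.36 to 21.3). This takes the fill-in as 0 and may be too large, as 4 of the 6 were at the LPS fill-in. One of the 6 shared its start with the 8013-nt circRNA, at chromosome 2, 188301023, ran on to 188330330, and went from 10 Sham reads to the LPS fill-in (at least 2.90-fold lower).

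Kmt2e, a SET-domain protein with little enzyme activity of its own, had circRNAs with 2-fold calls in opposite directions. All 3 began at chromosome 4, 8223840. The shortest, 15563 nt, went from 7 to 23 reads (ratio 2.39, with an interval of 0.991 to 6.58 that includes 1). It lost the 2-fold call on the scale of circRNAs with 50 or more reads (log2 0.74, from 1.19). The longest, 18870 nt, went from 10 reads to the fill-in (at least 2.90-fold lower), and the third from 3, which the fill-in could hold. The sum of 20 and 23 reads was within 2-fold. Setd7, which methylates lysine 4 of histone H3 and other proteins, went from 36 to 18 reads on 1 circRNA, 2.76-fold lower (1.52 to 5.15). The other 4 enzymes, Kmt2a, Nsd1, Setdb1 and Setdb2, had at most 9 reads in either library.

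**Figure D4:**
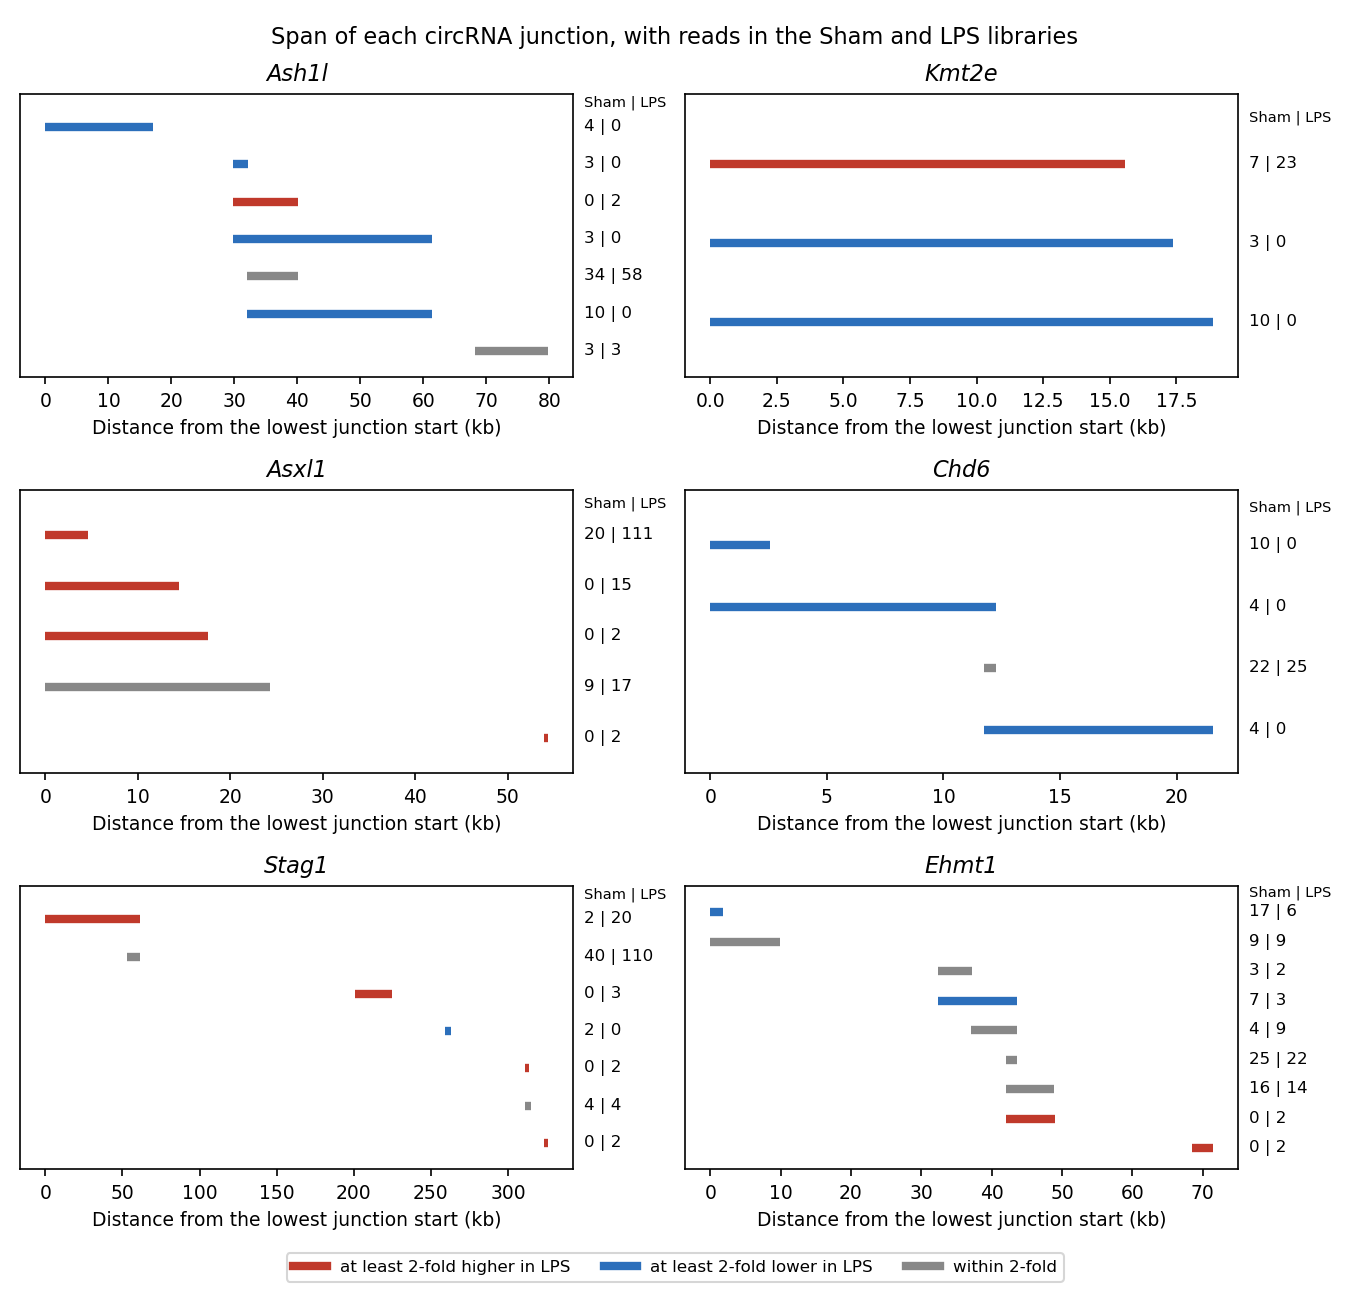
Span of each circRNA of 6 host genes, drawn to scale as kilobases from the lowest junction start of the host, with its Sham and LPS reads at the right (0 stands for the fill-in, 0 or 1 read). The shortest junctions are widened to be seen. In Ash1l and Kmt2e the circRNA with the most LPS reads (34 to 58, within 2-fold, and 7 to 23) shares its start with longer ones that were at the LPS fill-in. In Asxl1 the 4 circRNAs with a common start all had more LPS reads. That of 24304 nt was within 2-fold, and that of 17542 nt had 2 LPS reads, which its Sham fill-in could hold.

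Histone demethylases had 116 and 169 reads, a ratio of 1.06 (0.830 to 1.35), or 1.46 and 0.777 on the other scales, with 3 of 7 hosts higher, 1 lower and 3 within 2-fold. Jmjd1c, a jumonji protein related to the enzymes that clear lysine 9 methylation, had the highest ratio among those with reads in both libraries. It went from 18 reads, or 472.3 CPM (298.8 to 746.5), to 69, or 1314 CPM (1039 to 1663), a ratio of 2.78 (1.64 to 4.97). Its circRNAs shared their end at chromosome 20, 22856689. The 34623-nt circRNA went from 18 to 48 reads (1.94, 1.11 to 3.54) and the 164-nt circRNA from the fill-in to 21 (at least 3.21-fold), the most reads of any member seen in 1 library only.

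Kdm5a, which removes methyl groups from lysine 4 of histone H3, had 71 and 70 reads over 7 circRNAs (ratio 0.716, 0.507 to 1.01). Kdm6a, which clears lysine 27 and lies on the X chromosome, had 8 and 8 reads, listed on different circRNAs. In LPS 6 came from a 9293-nt and 2 from an 8721-nt circRNA. In Sham 6 came from a 22301-nt and 2 from a 13066-nt circRNA. The fill-in of the other library could hold as much for all but the 22301-nt circRNA. That one was 1.74-fold above the limit of the LPS fill-in, but its interval began below that limit, at 72.2 CPM. Kdm1a, the flavin-dependent demethylase, went from 15 to 10 reads, 2.07-fold lower with an interval of 0.868 to 5.14 that includes 1. Kdm5d lies on the Y chromosome with a close relative on the X, and its reads, 4 and 3, could not be assigned with certainty. Kdm4b and Kdm5b had 4 and 5 reads, both in the LPS library only.

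Polycomb repressive complex 2 methylates lysine 27 of histone H3. Its 3 hosts had 14 and 40 reads, a ratio of 2.07 (1.10 to 4.13), or 2.86 and 1.52 on the other scales. Ezh2, the catalytic subunit, made up all of the Sham and 36 of the LPS reads, with 14 reads, or 367.3 CPM (218.8 to 616.5), and the 36 reads, or 685.6 CPM (495.3 to 949.0), a ratio of 1.87 (0.982 to 3.75). Its 1137-nt circRNA at chromosome 4, 77329328 to 77330465, passed 2-fold with 11 and 32 reads (2.11, 1.04 to 4.64), and did not on adding 1 read in place of 0.5 (log2 0.997, from 1.04) or on the scale of circRNAs with 50 or more reads (0.59). Suz12 and Jarid2 were each listed only in LPS, with 2 reads.

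Junctions of 1 host were compared with each other. Of the 67 hosts, 35 had several junctions, 118 in all, and 16 of these 35 had at least 1 junction 2-fold higher and 1 lower, a share of 45.7% against 46.1% of the 887 other hosts with several junctions. Most of these rested on few reads: counting junctions with 10 or more reads, 1 of 11 member hosts (9.09%) and 54 of 233 others (23.2%) had both. The ends were also shared: 68 junctions of 23 hosts met another of the same host at 1 of 37 positions, and at 8 of these positions higher and lower junctions met. Members shared an end with another circRNA more often than the rest of the table (46.0% and 37.1%), had more junctions per host (2.24 and 1.77), and were more often listed in both libraries by host (70.1% and 51.7%). At like reads this last difference was seen in the hosts with 2 to 9 reads (36% and 19.4%) and not in those with 10 to 49 (81.8% and 82.5%), while with 50 or more it was 100% and 98.5%. Junctions per host also rose with reads, of which a member host had a median of 13 and another host 9. Member hosts with 2 to 9, 10 to 49 and 50 or more reads had 1.08, 2.45 and 3.45 junctions on average, and the other hosts 1.16, 1.87 and 3.86.

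Short circRNAs of the chromatin hosts were mostly higher in LPS, but most of these calls rested on few LPS reads. The class of at most 500 nt between junction ends was looked at after the values were seen. Its 20 members comprised 14 that were higher, 5 within 2-fold and 1, of Arid1b, that was lower, whereas 36.1% of the 590 such circRNAs of all hosts were higher and 46.9% lower. Of the 14, 13 were at the Sham fill-in, and those of Jmjd1c, Smc1a and Phf3 had the most LPS reads at 21, 19 and 11. The others at the Sham fill-in had 2 to 5 LPS reads, which the fill-in could hold. With 10 or more reads, 4 of 8 members were higher and 1 lower, against 43.3% and 22.7% of all 203. Over 5000 nt, 16 of 61 members were higher (26.2%) and 28 lower (45.9%), against 33.8% and 45.6% of all circRNAs of that span.

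**Figure D5:**
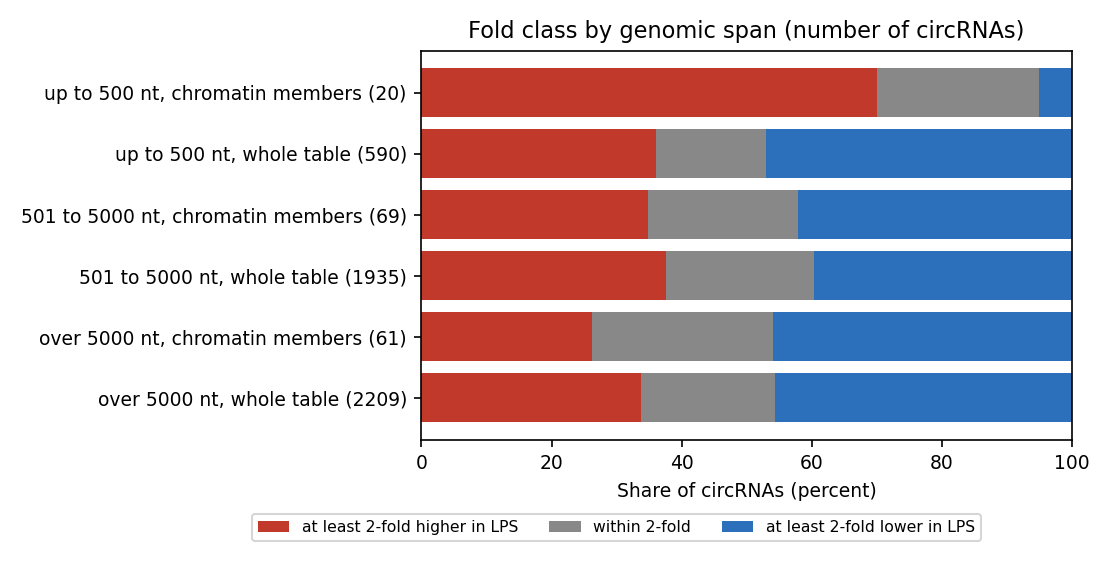
Share of circRNAs at least 2-fold higher, within 2-fold and at least 2-fold lower in LPS, by genomic span, for the chromatin members and the whole table, with the number of circRNAs in brackets. In the class up to 500 nt, 70% of the members were higher and 5% lower, against 36.1% and 46.9% of all circRNAs. Most of these higher members had few LPS reads, and with 10 or more reads 4 of 8 were higher, against 43.3% of all. Over 5000 nt the members were at 26.2% and 45.9%, against 33.8% and 45.6%.

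Other chromatin genes that the name pattern does not take were also counted. Of 181 such genes, 57 were hosts in the table, with 96 circRNAs, 930 Sham reads (2.44% of the library, 2.29 to 2.60) and 1125 LPS reads (2.14%, 2.02 to 2.27). Of the 57, 18 were at least 2-fold higher (31.6%, against 31.1% of all host genes), 23 lower (40.4%, against 38.0%) and 16 within 2-fold. With 10 or more reads, 8 of 31 were higher (25.8%, against 25.0%), 7 lower (22.6%, against 26.6%) and 16 within 2-fold. Ubn2, a subunit of a chaperone complex that deposits a histone H3 variant, had the most reads, 323 and 362 (ratio 0.814, 0.698 to 0.948). Mbd1, which binds methylated DNA, had 79 and 186 (1.71, 1.31 to 2.25), Rere, a corepressor, 81 and 67 (0.600, 0.428 to 0.840), and Gatad2a, part of the NuRD deacetylase complex, 60 and 48 (0.581, 0.389 to 0.863).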

How the data were processed

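CircRNA was sequenced in 1 Sham and 1 LPS lung library. Per the labels, ribosomal RNA was removed, linear RNA was digested with RNase R and the second strand was marked with dUTP, whereas the study's methods name a SmartPCR kit with RsaI digestion. The submitters' processing notes list rn6, CASAVA 1.8 and BWA without their roles, and the circRNA caller is not given in the sources used here. The authors deposited 1 table with junction positions, host gene names and 1 value per library headed TPM. Each column sums to 1000000 in steps of 1 read whatever the span, so the deposited values were read as CPM. Values above the fill-in of 0.001 were whole multiples of this step within 2.7e-05 reads, and the lowest was 2 reads. Columns were assigned by name, and 0 columns were left out.

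The members and gene lists were chosen with earlier results of these data known. Hosts were named by rule: the 12 with the most reads, the 6 largest folds in each direction with reads in both libraries and at least 10 in all, the 4 with the most reads in 1 library only in each direction, and those with 4 or more junctions. CircRNAs were named likewise (6, 5 and 4). The values of 1 host that this rule takes are not reported here. Other members named to account for a small group, and the hosts Rad21, Esco1 and Mau2, were chosen after their values were seen. Positions are given as deposited, span is end minus start with introns included, and exon content, strand and sequence were not analysed here. Of 67 symbols, 66 matched the GRCr8 gene table, all 66 on the same chromosome, and Phf11d, of a family with several copies, did not. Rows of 11 members name several genes. No count test was used, as each group has 1 library. Fold steps were tested on simulated data. Alternatives were a pseudocount of 1 read, 0.001 kept as the value, the fill-in as 1 read, 4-fold, at least 10 reads, 2 other scales, single host names and a trimmed list. Role groups were also computed on the other scales and without their largest hosts, chosen after seeing the data. Steps ran in Python 3.11.15 with scipy 1.17.1, pandas 2.3.3, numpy 2.4.6 and, for plots, matplotlib 3.10.9.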

Additional observations from a re-analysis of the deposited data

How the results depend on the processing

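No paired analysis was possible because there was 1 library a group, and for the same reason no replicate could be left out. Higher circRNAs went from 54 to 21 with the fill-in as 1 read, 31 at 4-fold and 11 with at least 10 reads, and lower circRNAs from 58 to 18 with at least 10 reads. Higher hosts went from 17 to 10, 10 and 8 under the same 3 settings, and lower hosts from 24 to 11 at 4-fold and 14 with at least 10 reads. By construction these settings raise the value of the fill-in, ask for a larger fold or take fewer circRNAs. With at least 10 reads the share of junction reads was 2.94% in Sham and 3.16% in LPS. The readers and scaffolds reversed without Asxl1 and Brd8, from a ratio of 2.11 to 0.827. Leaving out Nsdhl, Ncoa4, Ncoa7 and Setd3 changed nothing, as no member carries those names.

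The naming rule takes 33 hosts and 22 circRNAs. For the 39 with reads in both libraries, 176 of 181 alternative values stayed within the counting interval of the ratio, and 10 lost and 6 gained the 2-fold call. The 16 listed in 1 library have no such interval, and their 72 values kept the call. Part of both tallies was fixed in advance. The fill-in as 1 read cannot change circRNAs with reads in both libraries, or hosts with no junction at the fill-in. Taking single host names cannot change hosts whose rows each name 1 gene. No called value changed direction. Phf3 went from 0.83 to 4.06 (log2) with rows of a single host name only. Hdac4, with the narrowest interval, went from 0.01 to 0.48 and -0.43 (log2) on the 2 other scales. Depth limits the rest: a member at the fill-in could hold as many reads as most circRNAs listed in 1 library.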
